A study of Mus musculus with 11 samples.

Results

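Arterial endothelial cells (ECs) line the arteries and arterioles that bring blood into the cerebral cortex. Here they were selected on their own transcripts: ECs were cells with at least 3 unique molecular identifiers (UMIs, each marking 1 captured transcript copy) of Cldn5, Flt1 and Pecam1 together, at most 2 UMIs of the mural genes Rgs5 and Vtn together, and at most 2 UMIs of the immune genes C1qa, C1qb and Ptprc together. Of these, arterial ECs had at least 3 UMIs of Bmx, Gkn3, Sema3g, Gja5 and Fbln5 together and no UMI of the venous genes Slc38a5 and Nr2f2. This rule found 1272 arterial ECs among 19835 ECs and 50625 cells kept in all, and 18563 ECs remained as other ECs, which hold capillary, venous and unassigned endothelium.

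Along the brain vasculature, endothelium changes gradually from artery through capillary to vein. Arterial ECs face the highest shear and pressure, rest on an elastic wall with smooth muscle, and use Notch signalling and ephrin-B2 to hold their identity, whereas most exchange of nutrients across the blood-brain barrier and most entry of leukocytes take place in capillaries and venules. Interferons raise antigen presentation by major histocompatibility complex (MHC) molecules in many cell types, including endothelium.

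The study captured single cells of cerebral cortex from C57BL/6 mice, perfused with saline, with tissue digested in papain and Liberase and myelin removed, on the 10x Chromium 3′ v2 system. Juvenile mice (postnatal day 10, 4 libraries), adult mice (7 to 11 weeks, 3 libraries) and aged mice (18 months, 2 libraries) were untreated. Mice with experimental autoimmune encephalomyelitis (EAE, 2 libraries), a model of inflammatory demyelination, were immunised as females of 7 to 11 weeks with a myelin oligodendrocyte glycoprotein peptide in complete Freund's adjuvant, given pertussis toxin, and sampled at the peak of disease. Juvenile and adult libraries came from pooled tissue of 6 mice and aged and EAE libraries from 3. The study describes adjuvant and toxin for the EAE mice only and calls the adult mice healthy. The labels state no sex for the untreated groups, while the study's methods give females as the default.

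The libraries held 15755504 to 34326349 UMIs each. The arterial ECs of a library numbered 21 (Adult 1) to 214 (Aged 1) and summed to 83764 to 829556 UMIs, so that 1 UMI was worth 11.9 CPM (UMIs per 1000000 UMIs of the sum) in Adult 1 and 1.205 to 3.94 CPM elsewhere. Juvenile 1 and 2, and Juvenile 3 and 4, differed by little more than sampling noise and were summed into 1 unit each, which left 9 units for tests. Nothing in the labels says that libraries of a group came from separate pools of mice, so p-values measure the spread between these libraries. Pairs of libraries shared 13 to 125 cell barcodes, and Scrublet called 0.0421% to 2.49% of cells doublets. Juvenile 3 and 4 held 27 and 20 arterial UMIs of the Y-linked gene Ddx3y and every other library 0.

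The genes of the rule describe the selected cells and are not findings. Gkn3, a gene of arterial brain endothelium, ranged from 1366 to 3050 CPM in arterial sums with a median of 2393 CPM, against a median of 41.4 CPM in other ECs. Bmx, a tyrosine kinase of arterial endothelium, had medians of 289 CPM and 11.4 CPM, and Sema3g, a secreted semaphorin, 262 CPM and 19.1 CPM. Fbln5, an elastic fibre protein, reached 4085 CPM in juvenile sums, and 95.7% to 100% of juvenile arterial ECs held a UMI of it, against 23.8% to 61.2% of adult, 29.2% to 38.3% of aged and 17.4% to 29.6% of EAE arterial ECs. Gja5, the gap junction protein connexin 40, was found in 30.3% to 59.6% of juvenile arterial ECs and in 6.40% to 14.8% of those of the other groups. The median arterial EC held 15 to 33 UMIs of the rule's arterial genes in juvenile libraries, 6 to 14.5 in adult, 7 and 11 in aged, and 5 and 6 in EAE libraries. EAE 2 and Adult 1 both held 6, and EAE 1 lay below all other libraries.

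At the threshold, 435 ECs without venous UMIs held 2 UMIs of the arterial genes and 192 held 3. Over libraries the former had medians of 343 CPM of Mgp, 60.8 CPM of Egfl8, 180 CPM of Car4 and 471 CPM of Tmsb10, and the latter 276, 172, 58.8 and 219 CPM. These levels varied widely between libraries, and Mgp was higher in the cells with 3 UMIs in 7 of 11 libraries. Of smooth muscle markers, whose cells surround arterial endothelium, arterial sums held 102 to 243 CPM over 8 genes, with Cnn1 at 0 in all groups, and other ECs 26.9 to 279 CPM. The arterial sum was the higher in 9 of 11 libraries, for example with 190 against 44.4 CPM in Adult 2, and the lower in Juvenile 2 and Adult 1. Over 8 astrocyte markers the arterial sums held 482 to 1874 CPM and other ECs 206 to 1790 CPM, higher in arterial ECs of 10 of 11 libraries, and these sums include Clu, which is also on the list of arterial identity genes. Of 8 pericyte markers arterial sums held 4.03 to 59.7 CPM and other ECs 7.79 to 64.4 CPM. The part of these markers in the differences between arterial and other ECs was not tested.

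The share of arterial cells overlapped between juvenile, adult and aged libraries. With each cell thinned to 1500 UMIs and the whole rule applied anew, arterial ECs made up 10.0%, 9.70%, 5.41% and 6.72% of ECs in Juvenile 1 to 4, 2.97%, 6.19% and 6.23% in Adult 1 to 3, 6.84% and 5.98% in the aged libraries and 3.01% and 2.98% in the EAE libraries. The ECs counted also differ from the unthinned ones, with 808 against 610 in Adult 1 and 2513 against 2936 in Aged 1, and ECs under 1500 UMIs were left out, which were 0.891% to 2.18% of ECs in juvenile, 4.23% to 9.51% in adult, 11.3% to 15.2% in aged and 14.3% in EAE libraries. Unthinned, the shares were 6.25% to 10.7%, 3.44% to 7.68%, 7.20% to 7.29% and 4.38% to 4.54%. The EAE shares lay below those of Adult 2 and 3 and beside that of Adult 1. Unit means were 7.96% ± 2.67 (SD, n = 2) in juvenile, 5.13% ± 1.87 (SD, n = 3) in adult, 6.41% ± 0.612 (SD, n = 2) in aged and 2.997% ± 0.0189 (SD, n = 2) in EAE mice. Against adult, the juvenile share was 2.83 points higher (two-sided exact permutation test, p = 0.4), the aged share 1.28 points higher (exact permutation p = 0.6), and the EAE share differed by -2.13 points (exact permutation p = 0.4), where the smallest p this design allows is 0.1. Fewer arterial cells and less marker RNA per arterial cell cannot be told apart in such a share. Of juvenile arterial ECs, 4.255% to 13.2% held none of the rule's arterial genes but Fbln5, against 0% to 1.775% in the other groups. Without Fbln5 in the rule, unthinned arterial ECs numbered 41, 34, 48 and 52 in Juvenile 1 to 4, from 47, 48, 69 and 76. In Adult 1 to 3 they numbered 19, 158 and 164, from 21, 169 and 170. The difference of shares without Fbln5 was not tested. The bar on venous UMIs also left out unthinned ECs with at least 3 arterial UMIs, 30, 20, 26 and 38 in Juvenile 1 to 4. It left out 2, 19 and 19 in Adult 1 to 3, 18 and 17 in the aged and 15 and 11 in the EAE libraries. In proportion to the arterial ECs kept, more were left out in juvenile than in the other libraries. Their part in the juvenile share and in the juvenile differences below was not tested.

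**Figure D1:**
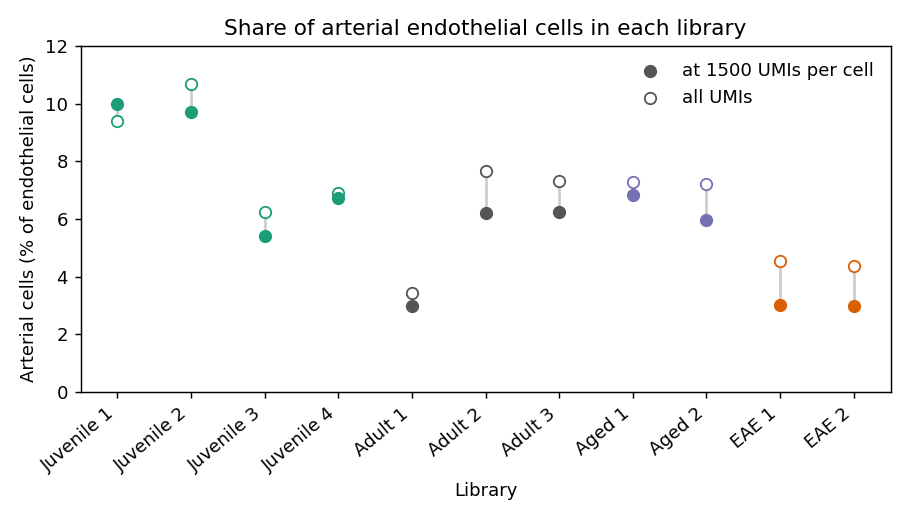
Arterial ECs as a percentage of all ECs (y axis) in each of the 11 libraries (x axis), after thinning to 1500 UMIs per cell (filled points) and with all UMIs (open points). The EAE libraries sit at 3.01% and 2.98% after thinning, close to Adult 1 (2.97%) and below the other libraries.

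Against the other ECs of the same library, 11 of 16 arterial identity genes were at least 2-fold higher in arterial sums. At least 2-fold lower were 5 of 22 barrier transporter and junction genes. The 2-fold limit applies to the median of the libraries, and each of these genes kept its direction in every library. This is a description of selected cells and carries no test. Among 3511 genes with at least 50 CPM, 148 were at least 2-fold higher in arterial ECs by the median of the libraries and higher in all 11 (4.22%), and 71 were at least 2-fold lower and lower in all 11 (2.02%). Outside the genes of the rule, Mgp, an inhibitor of vessel calcification (chromosome 6, 136872435 to 136875823, minus strand, GRCm38), led with 863 to 9637 CPM in arterial sums (median 3934) against 69.6 to 494 CPM in other ECs (median 160), a median log2 ratio of 4.29 on CPM + 5. Egfl8, an EGF-like protein, had a median of 400 CPM against 17.9 CPM (3.60), and the gap junction gene Gja4 (connexin 37) 187 CPM against 10.8 CPM (3.45). Vegfc, a lymphatic and vascular growth factor, had 260 CPM against 17.0 CPM (3.45). None of these ranges overlapped with that of other ECs from the same library.

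Further genes among the 15 highest by ratio were the secreted Wnt inhibitor Dkk2 (log2 ratio 3.70), the BMP-responsive membrane protein Tmem100 (3.41), the microtubule regulator Stmn2 (3.40), the neuronal nitric oxide synthase Nos1 (3.35), the elastic fibre protein Fbln2 (3.35), the insulin-like growth factor binding protein Igfbp3 (3.33) and the basement membrane collagen Col18a1 (3.28). Igfbp4, another binding protein of insulin-like growth factors, had a log2 ratio of 4.18 to 4.71 by group median in adult, aged and EAE mice but 1.25 in juveniles. Hbb-y, an embryonic globin that shares sequence with other beta globins, had a median of 97.6 CPM against 1.66 CPM, and cells rich in Ttr without endothelial UMIs held 0 of it. These Ttr-rich cells also held 815 to 1161 CPM of the choroid plexus gene Folr1 and have RNA of their own, so their levels are given as a comparison and do not measure free RNA. Its reads may be split among globin paralogs, so this value is uncertain.

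The list of arterial identity genes that the rule did not use placed 11 of its 16 measured members at least 2-fold higher by the median and higher in all libraries. Efnb2, the ephrin that marks arteries, had a log2 ratio of 2.34 (1.33 to 2.81), the vasoconstrictor Edn1 1.62 and the transcription factor Sox17 0.70 (0.39 to 1.65). Cxcl12, also on the list, was higher in 3 of 11 libraries. Of 10 Notch genes 3 were at least 2-fold higher by the median and higher in all libraries: the ligand Jag1 (2.23), the target Hey1 (2.08) and the receptor Notch4 (1.26). Dll4, the other arterial ligand, had 1.19 by the adult median but -0.25 in EAE, and the target Hes1 was lower in arterial ECs of all 11 libraries (-0.31). Within the elastic fibre and basement membrane list, Eln (elastin) had a median of 94.1 CPM against 3.71 CPM but 0 UMIs in Adult 1, the crosslinking enzyme Lox 31.3 against 1.41 CPM, and the TGF-beta binding protein Ltbp4 1398 against 382 CPM.

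On the lower side, Car4, a carbonic anhydrase of capillaries, had 5.41 to 85.2 CPM in arterial sums against 408 to 1762 CPM (median log2 ratio -4.18). The protease inhibitor Ctla2a (-2.93), the cholesterol exporter Abcg1 (-2.55), the lipid carrier Apod (-2.53), the actin-binding Tmsb10 (-2.45) and the creatine synthesis enzyme Gatm (-2.42) followed. Of 22 barrier transporter and junction genes, 5 were at least 2-fold lower by the median and lower in all libraries: the amino acid carriers Slc7a5 (-2.03), Slc38a3 (-1.39) and Slc7a1 (-1.07), the lactate carrier Slc16a1 (-1.93) and the organic anion carrier Slc22a8 (-1.66). The venous list divided, with 5 of 8 members lower and 2 higher. The adhesion proteins Vcam1 (1.54) and Vwf (1.09), by name on that list, were higher in arterial ECs of all 11 libraries.

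**Figure D2:**
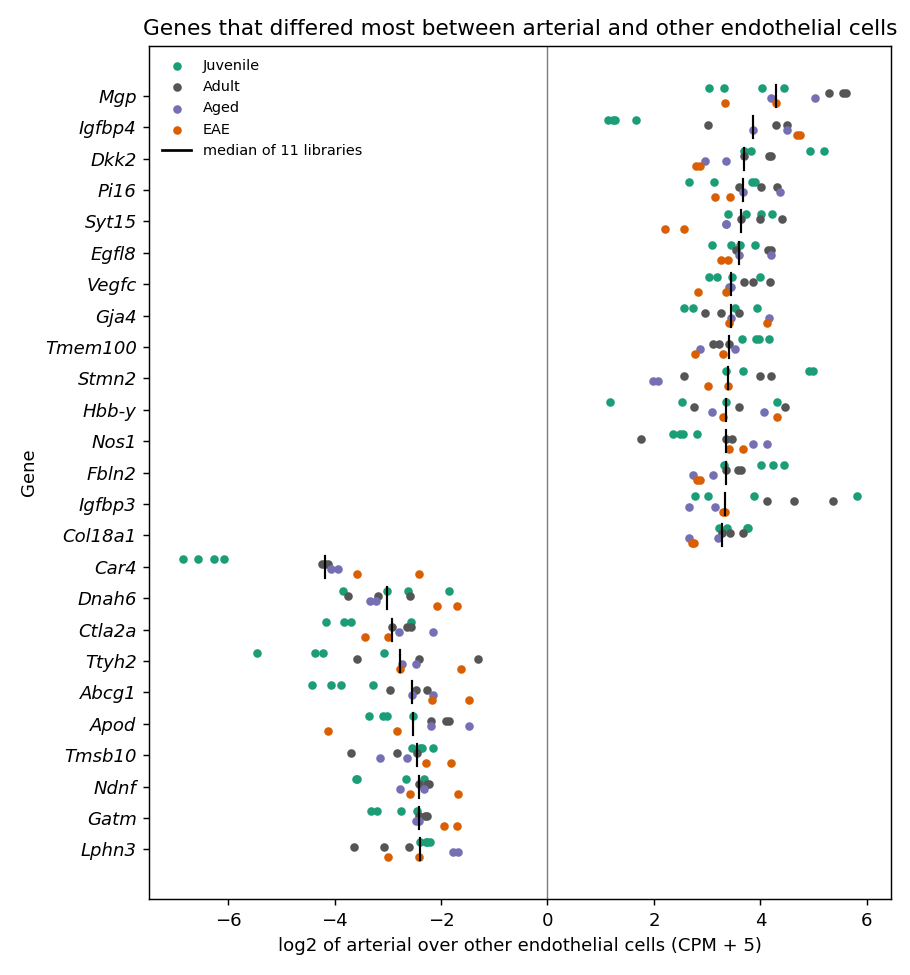
Log2 ratio of arterial to other ECs (CPM + 5) for named genes, 1 point per library, coloured by group. Bars mark the median of the 11 libraries. The 15 genes from Mgp to Col18a1 were chosen among genes above 0, and the 10 from Car4 to Lphn3 among genes below 0, in every library.

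The ages and EAE were next compared within arterial ECs, each against the same 3 adult libraries, so the 3 comparisons share their controls. UMIs were summed over the arterial ECs of each unit and tested by edgeR's quasi-likelihood test over 8621 genes, with genes called at a Benjamini-Hochberg adjusted p of 0.05. The 8621 genes include genes of the rule, and 8609 lie outside it. Values below are CPM in each library, fold changes are log2 with their standard error (SE), and adjusted p-values are from that test. Since p-values of genes from the same libraries are not independent, each list is given by its counts beside the share of all genes called. Statements that groups did not overlap describe the printed values and are no test. With so few libraries in a group, values can stand apart without a real change. Genes named by size of change were also chosen among those without overlap. The share of all genes without overlap is not given here.

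Juvenile arterial ECs differed from adult ones in cell division, the vessel wall, nutrient carriers and the interferon and MHC programme. Of 8621 genes 527 were higher (6.11%) and 592 lower (6.87%). The count was 665 without Adult 2, 694 without Adult 3 and 713 without Juvenile 3 and 4, against 1119.

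All 13 tested cell cycle genes were higher, with a median log2 fold change of 2.00. Cdk1, the kinase that drives entry into mitosis, had 75.7, 31.5, 86.2 and 86.1 CPM in Juvenile 1 to 4 and 0, 2.55 and 0 CPM in Adult 1 to 3. The groups did not overlap, and 111 juvenile against 2 adult UMIs gave a ratio of 59.5 (95% counting interval 16.1 to 497.2, adjusted p = 1.03e-08). Birc5 (survivin), a mitotic checkpoint protein, had 32.5, 11.8, 109 and 48.9 CPM against 0, 0 and 1.36 CPM, a ratio of 90.0 on 84 and 1 UMIs (15.7 to 3597, adjusted p = 5.97e-06). Rrm2, a subunit of ribonucleotide reductase, had 51.4, 31.5, 93.0 and 48.9 CPM against 11.9, 3.83 and 1.36 CPM (log2 4.11 ± 0.53 SE, adjusted p = 7.70e-07). Cks2 (a partner of Cdk1) rose with 93 against 1 UMIs, a ratio of 99.7 (17.4 to 3978). 2810417H13Rik rose with 104 against 2 UMIs, a ratio of 55.7 (15.04 to 466.2).

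Counted per cell at 1500 UMIs, 14 of 239 juvenile arterial ECs (5.86%) held at least 2 UMIs of 8 cell division genes, as did 158 of 2870 other juvenile ECs (5.51%). Among 906 juvenile Ttr-rich cells without endothelial UMIs, 7 did (0.773%). By library, Juvenile 1 to 4, the shares were 4.26%, 6.25%, 7.25% and 5.33% of arterial and 9.13%, 6.04%, 4.98% and 4.20% of other ECs, with neither class higher throughout. In adult mice 1 of 345 arterial ECs reached it. None did in Aged 1 (0 of 202, which allows a share of up to 1.49%), Aged 2 (0 of 187, up to 1.604%), EAE 1 (0 of 131, up to 2.29%) or EAE 2 (0 of 117, up to 2.56%), limits that cover counting error only. Unthinned, 27 of 240 juvenile arterial ECs and 445 of 2914 other juvenile ECs did, with the arterial share the lower in all 4 libraries, as did 0 of 138 arterial ECs in EAE 1 and 3 of 125 in EAE 2. The difference between the classes was not tested.

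Wall genes were higher without exception among those called: 7 of 15 elastic fibre and basement membrane genes rose and 0 fell. Col4a2, a chain of basement membrane collagen IV, had 1060, 571, 658 and 793 CPM against 155, 166 and 151 CPM (log2 2.29 ± 0.16 SE, adjusted p = 1.04e-12). Fbln2 had 903, 921, 903 and 777 CPM against 167, 246 and 258 CPM (log2 1.84 ± 0.16 SE, adjusted p = 1.96e-10). Lama1, a laminin chain outside that list, had 87 against 3 UMIs, a ratio of 31.1 (10.3 to 153.6), and DESeq2 did not call it (adjusted p = 0.72). Nid1 (nidogen) rose by 3.02 on the log2 scale, Lamb1 by 1.92, Fbn1 (fibrillin) by 1.62 and Col4a1 by 1.56. Eln had 59.5, 146, 59.0 and 6.98 CPM against 0, 112 and 94.1 CPM and overlapped.

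Among 17 genes of growing vessels 7 were higher and 1 lower. The VEGF receptor Kdr had 844, 523, 511 and 679 CPM against 275, 185 and 213 CPM (log2 1.62 ± 0.16 SE, adjusted p = 2.77e-09). Marcksl1, an actin regulator, had 241, 244, 222 and 254 CPM against 59.7, 31.9 and 39.5 CPM (log2 2.65 ± 0.23 SE, adjusted p = 2.62e-10), and Sparc, a matrix-binding protein, 5373, 4907, 4604 and 4809 CPM against 1540, 1875 and 1956 CPM (log2 1.44 ± 0.16 SE). No library of one group reached the other in these 3 genes. Igf2 was called too (log2 1.40), but many settings ended that call. Without cells rich in Ttr, globin or fibroblast genes the Igf2 difference was -0.12. It was 0.21 at 5 arterial UMIs (adjusted p = 0.811), 0.29 after thinning (0.717) and 0.43 by the rule without Fbln5 (0.559). Igf2 was also not called by DESeq2 (adjusted p = 0.106) or without Juvenile 2 (0.0674), Adult 3 (0.0612) or the pair Juvenile 3 and 4 (0.0679).

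The arterial identity list split, with 5 members higher and 4 lower of 16. Egfl8 had 1387, 1192, 1205 and 1263 CPM against 215, 400 and 405 CPM (log2 1.77 ± 0.18 SE, adjusted p = 1.03e-08) and Gja4 1174, 882, 1230 and 1042 CPM against 107, 179 and 187 CPM (log2 2.64 ± 0.28 SE, adjusted p = 8.89e-05). Both groups stood clear of each other in both genes. The cell cycle inhibitor Cdkn1c rose by 0.96 and Sox17 by 0.63. Alpl, an alkaline phosphatase, had 35.1, 78.7, 84.0 and 88.4 CPM against 478, 362 and 322 CPM (log2 -2.37 ± 0.19 SE, adjusted p = 5.94e-11), and Crip1 (-1.20), Cxcl12 (-0.83) and Edn1 (-0.76) fell. Mgp, the leading arterial gene, had 1411, 2711, 1670 and 863 CPM against 3629, 7162 and 7469 CPM and did not pass the test (log2 -1.95 ± 0.52 SE, adjusted p = 0.0746).

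Of 15 Notch genes 1 was higher and 1 lower. The feedback inhibitor Nrarp rose by 0.61 (adjusted p = 0.0248) and Hes1 fell by 0.59 (adjusted p = 0.0350), but Nrarp was not called without Juvenile 1 (0.0551), Adult 2 (0.173) or Adult 3 (0.0660), nor Hes1 without Juvenile 1 (0.0618), Juvenile 3 (0.0563), Adult 2 (0.179), Adult 3 (0.216), Aged 1 (0.0584) or Aged 2 (0.0543). Dll4 had 252, 197, 184 and 165 CPM against 203, 226 and 190 CPM and Hey1 446, 283, 372 and 340 CPM against 382, 282 and 319 CPM. Juvenile and adult values overlapped in both. In the flow-response list, 3 genes rose and 5 fell of 15: the transcription factor Klf2 had 1996, 1873, 2167 and 2378 CPM against 4214, 5785 and 4648 CPM (log2 -1.22 ± 0.17 SE, adjusted p = 4.08e-06), and thrombomodulin, Thbd, 83.8, 78.7, 59.0 and 72.1 CPM against 131, 195 and 196 CPM (log2 -1.40 ± 0.18 SE). Calcrl, a receptor of the vasodilator adrenomedullin, rose by 1.06.

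Transporters moved in both directions, with 4 of 22 barrier genes higher and 6 lower. Slc16a1, which carries lactate and ketone bodies (chromosome 3, 104638668 to 104658462, plus strand), had 1714, 909, 1470 and 1657 CPM against 59.7, 161 and 127 CPM (log2 3.44 ± 0.19 SE, adjusted p = 4.14e-14). The glucose carrier Slc2a1 had 1192, 1007, 1337 and 1512 CPM against 2782, 2393 and 2257 CPM (log2 -0.95 ± 0.17 SE), and Slc7a5 43.3, 59.0, 20.4 and 69.8 CPM against 131, 152 and 150 CPM (log2 -1.69 ± 0.21 SE, adjusted p = 3.36e-07). In all 3 the groups did not overlap. The neutral amino acid carrier Slc1a4 rose (81 against 3 UMIs, a ratio of 28.9, 9.55 to 143), and the glutamate carrier Slc1a1 fell by 3.84. The efflux pump Abcb1a fell by 0.91. The lipid carrier Mfsd2a rose by 1.02, a call lost without Juvenile 1 (adjusted p = 0.0803).

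**Figure D3:**
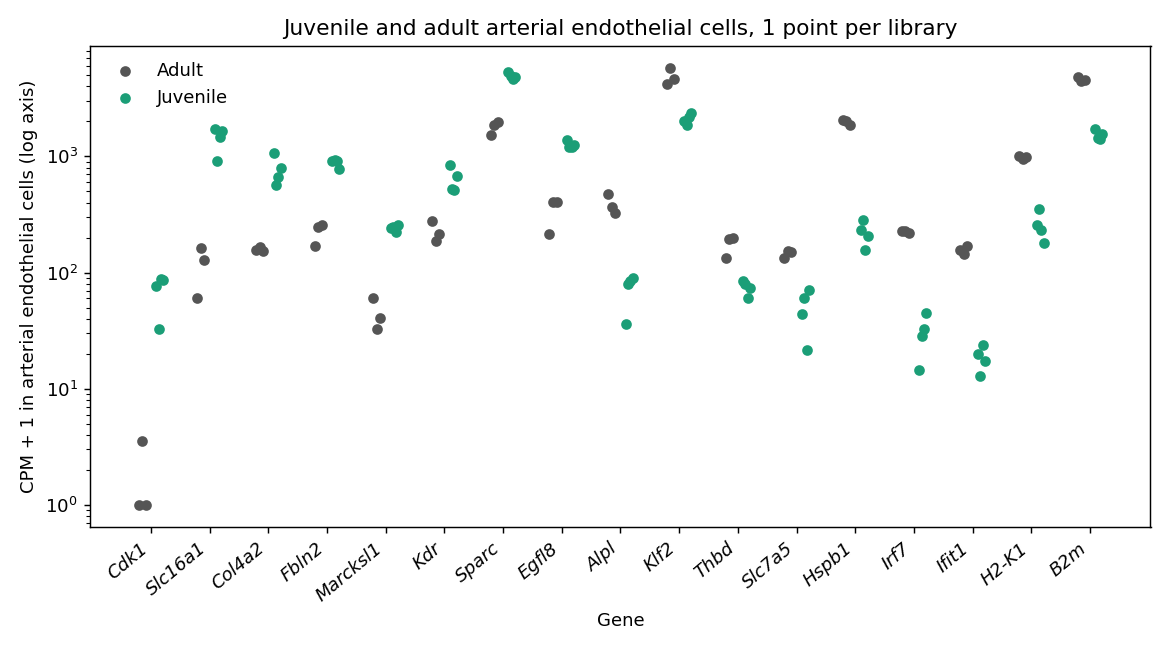
CPM + 1 (log axis) of 17 genes in the arterial ECs of the 4 juvenile and 3 adult libraries, 1 point per library. Juvenile points lie above adult ones from Cdk1 to Egfl8 and below them from Alpl to B2m, without overlap in any of these genes.

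Interferon-response and MHC genes fell broadly in juvenile arterial ECs: 22 of 25 interferon-response genes fell and 0 rose (median log2 -1.51), as did 15 of 17 MHC class I genes and 0 rose (median -1.46). Irf7, a transcription factor of the interferon response, had 13.5, 27.6, 31.8 and 44.2 CPM against 227, 227 and 218 CPM (log2 -2.92 ± 0.22 SE, adjusted p = 8.97e-12). Ifit1, an antiviral RNA-binding protein, had 18.9, 11.8, 22.7 and 16.3 CPM against 155, 144 and 168 CPM (log2 -3.12 ± 0.24 SE, adjusted p = 1.38e-11). Isg15, a ubiquitin-like protein, had 106, 86.6, 97.6 and 116 CPM against 263, 325 and 404 CPM (log2 -1.78 ± 0.18 SE). All juvenile libraries lay below all adult ones in these genes, as in H2-K1 (254, 350, 234 and 179 against 1015, 949 and 995 CPM, log2 -1.99 ± 0.18 SE) and B2m, the shared MHC class I light chain (1709, 1444, 1398 and 1568 against 4787, 4466 and 4528 CPM, log2 -1.58 ± 0.16 SE). In Ttr-rich cells without endothelial UMIs, adult Ifit1 reached 10.2 CPM. B2m held 162 to 239 CPM in those of juvenile and 543 to 557 CPM in those of adult libraries. Ifit3 (-3.54), H2-T23 (-2.34), Ifi27l2a (2 against 95 UMIs, 44.3-fold lower, 11.9 to 371) and the MHC class I gene H2-Q7 (-2.74), whose reads are shared with its near copies, also fell.

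Promoters are shown of Ifit1, Igtp, Irgm1 and B2m, called lower in juvenile and higher in EAE arterial ECs against the same adult libraries, and of Isg15, called lower in juveniles alone (RefSeq, GRCm38.p6, 250 bases before to 50 after the start site, 5′ to 3′ on the gene's strand). Capitals mark matches to the core of the interferon-stimulated response element, GAAA followed after any 2 bases by a second GAAA, searched on both strands with overlapping matches counted. This motif was found in 1131 of all 32851 promoters (3.44%) and in 3.99% of genes by any promoter. It was found in 12 of the 19 interferon-response genes with a promoter in the table (63.2%), in 4 of 15 MHC class I genes (26.7%) and in 0 of 4 MHC class II genes. A match is a description of letters and not of binding. Ifit1 lies on the plus strand, chr19:34640639-34640938, Isg15 on the minus strand, chr4:156200769-156201068, Igtp on the plus strand, chr11:58199306-58199605, Irgm1 on the minus strand, chr11:48871371-48871670, and B2m on the plus strand, chr2:122147437-122147736.
Ifit1: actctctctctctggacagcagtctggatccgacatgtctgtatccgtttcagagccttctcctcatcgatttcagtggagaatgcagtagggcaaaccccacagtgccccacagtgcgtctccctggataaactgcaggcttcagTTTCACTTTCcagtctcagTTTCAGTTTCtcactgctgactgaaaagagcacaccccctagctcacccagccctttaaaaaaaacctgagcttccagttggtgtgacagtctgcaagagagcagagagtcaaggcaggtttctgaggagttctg
Isg15: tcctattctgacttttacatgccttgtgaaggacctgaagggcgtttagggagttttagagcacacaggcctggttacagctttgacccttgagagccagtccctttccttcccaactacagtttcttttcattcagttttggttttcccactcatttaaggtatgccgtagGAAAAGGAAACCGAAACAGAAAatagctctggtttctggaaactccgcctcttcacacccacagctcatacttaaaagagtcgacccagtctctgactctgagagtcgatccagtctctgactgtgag
Igtp: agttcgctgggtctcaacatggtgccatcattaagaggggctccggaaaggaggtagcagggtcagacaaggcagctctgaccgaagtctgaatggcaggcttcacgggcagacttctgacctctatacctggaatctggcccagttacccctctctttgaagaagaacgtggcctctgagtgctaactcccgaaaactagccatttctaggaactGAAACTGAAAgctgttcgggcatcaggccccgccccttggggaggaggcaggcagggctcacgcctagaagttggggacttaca
Irgm1: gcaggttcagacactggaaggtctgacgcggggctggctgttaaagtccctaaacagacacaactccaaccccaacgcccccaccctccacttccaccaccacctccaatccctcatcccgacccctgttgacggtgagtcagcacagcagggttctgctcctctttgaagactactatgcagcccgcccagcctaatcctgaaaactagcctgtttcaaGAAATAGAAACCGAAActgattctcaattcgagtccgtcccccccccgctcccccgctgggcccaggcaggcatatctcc
B2m: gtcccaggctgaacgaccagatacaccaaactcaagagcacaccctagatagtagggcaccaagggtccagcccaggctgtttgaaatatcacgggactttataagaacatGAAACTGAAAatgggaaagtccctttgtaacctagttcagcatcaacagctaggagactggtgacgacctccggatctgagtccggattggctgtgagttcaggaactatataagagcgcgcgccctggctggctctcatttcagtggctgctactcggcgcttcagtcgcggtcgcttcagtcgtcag

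Other genes by the size of their change were the fatty acid binding protein Fabp7 (18.9, 55.1, 18.1 and 191 against 0, 10.2 and 2.73 CPM, log2 3.46 ± 0.66 SE), the imprinted zinc finger gene Plagl1 (log2 3.42) and the small heat shock protein Hspb1 (230, 283, 154 and 205 against 2041, 2032 and 1859 CPM, log2 -3.21 ± 0.19 SE, adjusted p = 4.14e-14). The noncoding AW112010 (-3.24), the membrane protein Clic5 (-3.40) and the adiponectin relative C1qtnf9 (-2.98) also fell. Fabp7 was not called without Juvenile 2 (adjusted p = 0.0518) or Juvenile 3 (0.130). Markers of other cells differed between these groups too: astrocyte markers summed to 573 to 1240 CPM in juvenile and 1122 to 1874 CPM in adult arterial ECs, fibroblast markers to 76.8 to 543 and 35.8 to 114 CPM, and microglia markers to 107 to 276 and 292 to 799.9 CPM. Their part in these results was not tested, while Fabp7, an astroglial gene as well, had 18.1 to 41.0 CPM in juvenile Ttr-rich cells.

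Whether the juvenile change was particular to arterial ECs was tested as the interaction of cell class with age, in a fit of arterial and other ECs with the unit as a block. The juvenile change differed between the classes in 968 of 11251 genes (8.6%), and in 623 without the pair Juvenile 3 and 4. Of the 1119 genes called in arterial ECs, 290 were called there too. Of the same 1119 genes, 1039 changed in the same direction in other ECs, and 909 were also called in a fit of other ECs. Slc16a1 rose in arterial ECs by 1.62 more than in other ECs (± 0.16 SE, adjusted p = 2.65e-15), where its log2 change was 2.00. For Slc7a5 the changes were opposite, -1.69 in arterial and 0.85 in other ECs, with a difference of -2.52 ± 0.19 SE (adjusted p = 2.08e-22). Ptgis, the prostacyclin synthase, had 75.7, 78.7, 93.0 and 55.8 CPM in juvenile and 71.6, 154 and 170 CPM in adult arterial ECs, whereas other ECs had mean levels of 103 and 13.5 CPM (difference -3.80 ± 0.22 SE, adjusted p = 1.76e-31). Cdkn1c (1.27), Calcrl (1.43), Kdr (0.94) and Sox17 (0.82) moved upward relative to other ECs.

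The ligand apelin, Apln, and its receptor Aplnr, both known from sprouting endothelium, were near 0 in arterial ECs of both ages, with 3 and 3 UMIs of Apln and 6 and 5 of Aplnr in juvenile and adult sums. In other ECs Apln had mean levels of 212 and 2.82 CPM and Aplnr of 416 and 19.2 CPM. The differences of -6.29 (adjusted p = 0.00141) and -3.96 (adjusted p = 0.00229) rest on those few UMIs and were not called without Adult 2 (-0.30 and -2.57). In the interferon list 13 of 26 genes fell less in arterial than in other ECs and 0 fell more. Isg15 fell by 1.78 in arterial and by 2.87 in other ECs (difference 1.11 ± 0.17 SE, adjusted p = 7.84e-08), and Ifit1 by 3.12 and 4.60 (1.39 ± 0.34 SE, adjusted p = 0.00250).

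Few genes were called between aged and adult arterial ECs. Of 8621 genes 35 were higher (0.406%) and 69 lower (0.8%), and 1078 had an unadjusted p under 0.05. The count of 104 was 22 without Adult 2, 36 without Adult 3, 24 without Aged 1, 38 without Aged 2 234 without Adult 1, and 265 and 266 without the pairs Juvenile 1 and 2 and Juvenile 3 and 4, and DESeq2 called 22. Adult 1 held 21 arterial ECs. In simulated data 43.5% of genes changed by 1 on the log2 scale were called, so few calls do not show that little changed. The larger sums of other ECs gave 1828 called genes of 14332 for aged against adult mice. Some sums of markers of other cells were lower in aged arterial ECs: 15 markers of blood and parenchyma, among them the globins and Ttr, summed to 10990 and 13400 CPM against 22390 to 49070 CPM, and 7 fibroblast markers to 27.7 and 32.5 CPM, with Dcn, Lum and Col1a1 at 0, against 35.8 to 113 CPM. Other sums overlapped: astrocyte markers (1513 and 1229 against 1122 to 1874 CPM), microglia and macrophage markers (403 and 546 against 292 to 799.9 CPM), smooth muscle and pericyte markers. By single genes, 6 of 9 tested markers of blood and parenchyma and 8 of 9 of microglia and macrophages had a positive log2 change. None of these was called higher, and 1 of blood and parenchyma was called lower. Their part in the aged results was not tested.

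Genes higher with age had varied functions. Islr2, a membrane protein of axon growth (chromosome 9, 58196297 to 58204319, minus strand), had 95.2 and 104 CPM in the aged against 0, 15.3 and 13.6 CPM in the adult libraries (log2 2.77 ± 0.38 SE, adjusted p = 0.000276). Xdh, the xanthine dehydrogenase of purine breakdown, had 85.6 and 116 CPM against 23.9, 22.96 and 8.18 CPM (log2 2.54 ± 0.31 SE, adjusted p = 7.93e-06). The retinol receptor Stra6 had 201 and 260 CPM against 0, 39.5 and 44.98 CPM (log2 2.46 ± 0.27 SE, adjusted p = 4.98e-05). Aged libraries lay above all adult libraries in each.

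S100a6, a calcium-binding protein, had 332 and 273 CPM against 83.6, 88.0 and 101 CPM (log2 1.62 ± 0.18 SE, adjusted p = 1.44e-06), and Cystm1 316 and 333 CPM against 83.6, 110 and 95.4 CPM (log2 1.61 ± 0.17 SE, adjusted p = 4.58e-07). Lypd1 rose by 2.63 and the synuclein Sncg by 1.71. None of these 7 genes lost its call when a library was left out, though S100a6 was not called when cells were selected after thinning (adjusted p = 0.456). In Ttr-rich cells without endothelial UMIs, Stra6 reached 85.4 CPM, Cystm1 207 CPM and the other 5 genes at most 72.5 CPM. Stmn2, one of the arterial identity genes, had 990 and 890 CPM against 358, 546 and 562 CPM (log2 0.82 ± 0.18 SE, adjusted p = 0.0132), a call lost without Adult 2 (0.0881), Aged 1 (0.285) or Aged 2 (0.0619).

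Genes that fell included 4 of 17 genes of growing vessels, with 0 risen. Igfbp3 (chromosome 11, 7206086 to 7213923, minus strand) had 140 and 120 CPM against 275, 537 and 518 CPM (log2 -1.92 ± 0.21 SE, adjusted p = 1.44e-06) and Sparc 800 and 865 CPM against 1540, 1875 and 1956 CPM (log2 -1.17 ± 0.17 SE, adjusted p = 0.000117). The transcription factor Sox4 had 4.82 and 5.41 CPM against 23.9, 28.1 and 32.7 CPM (log2 -2.58 ± 0.45 SE) and Marcksl1 10.8 and 9.46 CPM against 59.7, 31.9 and 39.5 CPM (log2 -1.92 ± 0.40 SE). All 4 were higher in juvenile than in adult arterial ECs, in comparisons that share the adult libraries. The Sox4 call was lost without Aged 1 (adjusted p = 0.0639) and that of Marcksl1 without Adult 3 (0.0711), Aged 1 (0.115) or Aged 2 (0.0937).

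Dll4 had 111 and 145 CPM against 203, 226 and 190 CPM (log2 -0.77 ± 0.17 SE, adjusted p = 0.0151), the only called gene of 15 in the Notch list, and was not called without Adult 2 (0.270), Adult 3 (0.0530) or Aged 1 (0.451). Ing2, a chromatin reader, fell by 1.63 (adjusted p = 0.000117), with its smallest gap between Aged 1 (42.2 CPM) and Adult 1 (47.8 CPM). The kinase Pim1 (-1.31), Mterfd1 (-1.26), Gm11942 (-1.27) and the ribosomal pseudogenes Rpl27-ps3, Rpl38-ps2 and Rpl36-ps2 also fell, and Gm16238, the prolyl hydroxylase P4ha2 and Sfi1 rose, all with calls that did not hold without Aged 1 (adjusted p from 0.0879 for Mterfd1 to 0.535 for Rpl27-ps3). The reads of pseudogenes can be shared with their parent genes. Interferon-response (0 of 25), MHC class II (0 of 6), cell cycle (0 of 13) and elastic fibre genes (0 of 15) were not called in either direction, and of 17 MHC class I genes H2-T23 alone was (-0.63), a call lost without Adult 2 (0.368), Adult 3 (0.119), Aged 1 (0.438), Aged 2 (0.371) or EAE 2 (0.0604). Other settings called some genes of these lists. Without Adult 1 the elastic fibre genes Ltbp4 (log2 -0.70, adjusted p = 0.00185) and Fbln2 (-0.68, 0.00712) and the interferon-induced Isg15 (-0.70, 0.00579) were called lower, and the tubulins Tuba1b (0.58, 0.0249) and Tubb5 (0.50, 0.0408) of the cell cycle list and the MHC class I gene H2-Q7 (0.99, 0.0150) higher, where with all libraries their adjusted p-values were 0.0813, 0.0871, 0.0526, 0.227, 0.304 and 0.0889. Ltbp4 was called in 7 settings in all, among them the rule after thinning (0.0313), Fbln2 in 5 and Hspg2, a basement membrane proteoglycan, in 4 (0.0434 with the 2 groups alone in the fit). H2-Q6, Ifi27, Ifi27l2a and Lamb1 were each called in at least 1 setting too.

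Between arterial and other ECs the age-related change differed in 115 of 11251 genes (1.02%), of which 10 were among the 104 called in arterial ECs. The count was 56 without Aged 2, 58 without Adult 3, 68 without Aged 1, 69 without Adult 2 and 253 without Adult 1. Of the 104 genes called in arterial ECs, 100 changed in the same direction in other ECs, and 58 were also called in them. The MHC class I gene H2-Q7 had 181 and 141 CPM in aged against 11.9, 67.6 and 85.9 CPM in adult arterial ECs, and other ECs had mean levels of 78.2 and 8.52 CPM (difference -2.06 ± 0.24 SE, adjusted p = 4.33e-10). Its near copy H2-Q6 gave -1.96, and reads of the pair can be shared. Vwf, which carries platelets to the wall, had 436 and 423 CPM against 549, 518 and 618 CPM in arterial ECs, where it was not called, and mean levels of 199 and 100 CPM in other ECs (difference -1.31 ± 0.14 SE, adjusted p = 9.33e-13). Isg15 gave a difference of -0.83 (adjusted p = 2.40e-05). In these 4 genes the aged change was lower in arterial than in other ECs.

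In EAE, arterial ECs showed a broad rise of antigen presentation and interferon-response genes, a rise of 8 of 17 acute-phase and stress genes, and a fall of 5 of 16 arterial identity, 3 of 15 Notch and 3 of 15 elastic fibre and basement membrane genes, while most members of the last 3 lists did not pass the test. Of 8621 genes 463 were higher (5.37%) and 379 lower (4.4%). The count of 842 was 463 without EAE 1, 494 without EAE 2 and 535 without Adult 2, and 498 when arterial ECs needed 5 UMIs of the rule's genes.

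In the interferon-response list 15 of 25 genes rose and 0 fell (median log2 0.72). Gbp4, a guanylate-binding protein induced by interferon, had 486 and 451 CPM in EAE 1 and 2 against 71.6, 81.6 and 79.1 CPM in the adult libraries (log2 2.63 ± 0.17 SE, adjusted p = 6.00e-13). The immunity-related GTPase Igtp had 540 and 405 CPM against 119, 99.5 and 108 CPM (log2 2.25 ± 0.16 SE, adjusted p = 4.18e-12) and Irgm1 304 and 268 CPM against 71.6, 86.7 and 61.3 CPM (log2 2.02 ± 0.20 SE). EAE libraries lay far above adult ones in all 3, and Ttr-rich cells of EAE libraries held at most 25.3 CPM of each. Ifit1 rose less (263 and 224 against 155, 144 and 168 CPM, log2 0.72 ± 0.16 SE, adjusted p = 0.00291), and Isg15 overlapped with 370 and 326 against 263, 325 and 404 CPM. Of the genes that rose, 9 of 11 with a promoter in the table held this motif (81.8%).

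Of 17 MHC class I genes 13 rose and 0 fell (median log2 1.11). B2m had 9288 and 10130 CPM against 4787, 4466 and 4528 CPM (log2 1.19 ± 0.15 SE, adjusted p = 4.23e-07), the peptide transporter Tap1 182 and 151 CPM against 59.7, 52.3 and 43.6 CPM (log2 1.84 ± 0.22 SE, adjusted p = 1.66e-07) and the immunoproteasome subunit Psmb8 687 and 594 CPM against 155, 245 and 247 CPM (log2 1.54 ± 0.16 SE, adjusted p = 1.09e-08). In all 3 the groups did not overlap, and Ttr-rich cells of EAE libraries held up to 1595 CPM of B2m and 70.2 CPM of Psmb8. Nlrc5, the transcriptional activator of MHC class I, rose by 2.66 on 30 against 8 UMIs.

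All 6 MHC class II genes tested rose (median log2 3.19). H2-Eb1 had 153 and 189 CPM against 23.9, 21.7 and 12.3 CPM (log2 3.35 ± 0.28 SE, adjusted p = 9.61e-11), H2-Aa 199 and 286 CPM against 35.8, 33.2 and 28.6 CPM (log2 3.03 ± 0.26 SE), and the invariant chain Cd74 573 and 1223 CPM against 11.9, 51.0 and 36.8 CPM (log2 4.51 ± 0.67 SE, adjusted p = 0.0145, not called without Adult 2 or Adult 3, 0.0771 and 0.0912). In Ttr-rich cells without endothelial UMIs, H2-Eb1 had 190 and 156 CPM and H2-Aa 204 and 227 CPM in the EAE libraries, and Cd74 677 and 539 CPM. Arterial levels of all 3 genes thus lay below those of the Ttr-rich cells in EAE 1 and above them in EAE 2, and RNA from other cells and expression by arterial ECs cannot be told apart here. The macrophage genes Lyz2 (170 and 206 against 119, 77.8 and 54.5 CPM) and Ctss (246 and 228 against 239, 71.4 and 75.0 CPM) rose as well, Ctss with overlapping groups. The neutrophil gene S100a9 had 86.9 and 274 against 23.9, 10.2 and 14.99 CPM (adjusted p = 0.0259), a call lost without Adult 1, Adult 2 or Adult 3 (0.0612, 0.118 and 0.121). Their part in the MHC class II result was not tested, and over 10 microglia and macrophage markers arterial sums held 578 to 609 CPM in EAE and 292 to 799.9 CPM in adult libraries, with 0 markers absent.

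Acute-phase and stress genes followed, with 8 of 17 genes of the acute-phase and stress list higher and 0 lower, among them Lcn2 and Lrg1. Scgb3a1, a small secreted protein outside that list (chromosome 11, 49663610 to 49665118, plus strand), had 230 and 196 CPM against 0, 3.83 and 4.09 CPM (log2 5.83 ± 0.35 SE, adjusted p = 8.39e-14). Lcn2 (lipocalin 2), an iron-scavenging acute-phase protein, had 64.2 and 107 CPM against 0, 3.83 and 1.36 CPM (log2 5.08 ± 0.52 SE, adjusted p = 8.83e-09), and Lrg1, a glycoprotein of inflamed endothelium, 80.7 and 78.6 CPM against 0, 2.55 and 4.09 CPM (log2 4.67 ± 0.50 SE). All 3 were at most 19.9 CPM in Ttr-rich cells of the same libraries.

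Xdh had 482 and 369 CPM against 23.9, 22.96 and 8.18 CPM (log2 4.77 ± 0.26 SE, adjusted p = 8.39e-14), a larger value than in aged arterial ECs and in a comparison with the same controls. Fkbp5, a glucocorticoid-induced chaperone, had 58.0 and 46.4 CPM against 11.9, 0 and 0 CPM, a ratio of 83.4 on 51 and 1 UMIs (14.3 to 3358, adjusted p = 4.56e-07), and Zbtb16, another glucocorticoid-responsive gene, 89.0 and 111 CPM against 23.9, 5.10 and 1.36 CPM (log2 4.52 ± 0.46 SE). EAE and adult libraries did not overlap in these genes. The flavin monooxygenase Fmo2 rose by 3.70. Retnlg (log2 4.49) and Plac8 (log2 4.04), genes of myeloid cells, rose with 43.5 and 96.7 CPM and with 60.0 and 62.5 CPM in the EAE libraries, where Ttr-rich cells held 14.9 and 35.7 CPM and 62.9 and 39.1 CPM of them.

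Arterial identity genes fell more often than they rose, 5 against 1 of 16. Vegfc had 95.2 and 72.5 CPM against 370, 315 and 260 CPM (log2 -1.75 ± 0.19 SE, adjusted p = 2.15e-08), Egfl8 141 and 129 CPM against 215, 400 and 405 CPM (log2 -1.35 ± 0.21 SE, adjusted p = 2.98e-05) and Efnb2 55.9 and 46.4 CPM against 59.7, 140 and 160 CPM (log2 -1.39 ± 0.32 SE, adjusted p = 0.00929). Alpl fell by 1.07 and Cdkn1c by 1.12. Mgp did not pass (5030 and 9637 against 3629, 7162 and 7469 CPM), and Sox17 rose by 0.58. The median EAE arterial EC held 5 and 6 UMIs of the rule's arterial genes, against 6 to 14.5 in adult libraries. Among cells with at least 5 such UMIs Vegfc fell by 1.40, Egfl8 by 1.04 and Fbln2 by 1.93. Only 1 of the rule's arterial genes was found in 24.6% and 23.2% of EAE arterial ECs, against 14.3%, 7.69% and 10% in Adult 1 to 3. At least 3 were found in 24.6% and 36.8%, against 38.1%, 62.7% and 65.3%. The part of this looser selection in the falls of arterial identity, Notch and elastic fibre genes was not tested.

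Of 15 Notch genes 3 fell and 0 rose. Dll4 (chromosome 2, 119325784 to 119335962, plus strand) had 86.9 and 74.6 CPM against 203, 226 and 190 CPM (log2 -1.28 ± 0.20 SE, adjusted p = 2.67e-05) and fell by 1.59 among cells with at least 5 UMIs of the rule's genes. Hes1 had 528 and 572 CPM against 692, 1138 and 1205 CPM (log2 -0.83 ± 0.19 SE, adjusted p = 0.00445) and Nrarp 41.4 and 86.7 CPM against 131, 128 and 143 CPM (log2 -0.98 ± 0.24 SE, adjusted p = 0.00590). EAE libraries lay below all adult ones in the 3 genes, although Hes1 was not called without EAE 1 (0.0993), nor Nrarp without EAE 1 (0.334) or Adult 3 (0.0513). The ligand Jag1 had 234 and 232 CPM against 227, 333 and 428 CPM and Hey1 248 and 204 CPM against 382, 282 and 319 CPM, and neither passed the test.

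Of 15 elastic fibre and basement membrane genes 3 fell and 0 rose. Fbln2 had 60.0 and 64.5 CPM against 167, 246 and 258 CPM (log2 -1.85 ± 0.21 SE, adjusted p = 6.26e-08) and Ltbp4 600 and 661 CPM against 1540, 1847 and 1827 CPM (log2 -1.37 ± 0.18 SE, adjusted p = 1.43e-06). Ltbp3 held 1 against 22 UMIs, 13.5-fold lower (2.17 to 555), and was not called without EAE 1 (adjusted p = 0.300), EAE 2 (0.0886), Juvenile 1 (0.0524) or Juvenile 3 (0.0525). Eln overlapped, with 62.1 and 117 CPM against 0, 112 and 94.1 CPM. The endothelial nitric oxide synthase Nos3 had 58.0 and 84.6 CPM against 119, 150 and 142 CPM (log2 -0.93 ± 0.24 SE, adjusted p = 0.00847, not called without Adult 2, 0.0710, or EAE 1, 0.229), and Ramp2, a partner of the adrenomedullin receptor, rose by 0.81. Of 17 genes of growing vessels 1 rose and 5 fell, among them Sparc (638 and 744 against 1540, 1875 and 1956 CPM, log2 -1.28 ± 0.18 SE) and the insulin-like growth factor receptor Igf1r, the gene that rose (342 and 262 against 119, 120 and 120 CPM, log2 1.41 ± 0.17 SE).

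Of 22 barrier genes 5 rose and 3 fell. Slc7a5 had 344 and 389 CPM against 131, 152 and 150 CPM (log2 1.38 ± 0.16 SE, adjusted p = 1.98e-07), Slc3a2, its heavy chain, 907 and 895 CPM against 597, 536 and 575 CPM (log2 0.77 ± 0.16 SE), and the efflux pump Abcc4 234 and 232 CPM against 95.5, 86.7 and 77.7 CPM (log2 1.56 ± 0.18 SE, adjusted p = 1.08e-07). Lsr, a protein of tricellular junctions, had 153 and 177 CPM against 561, 361 and 326 CPM (log2 -1.10 ± 0.22 SE, adjusted p = 0.00143). No library overlapped with the other group in these 4 genes, which describes their values and adds no test to the adjusted p-values. Of 8 leukocyte adhesion genes, F11r was called (log2 -0.68, not called without Adult 3, adjusted p = 0.0692, or EAE 1, 0.287), and Vcam1 (182 and 324 against 143, 573 and 519 CPM) and Icam1 (16.6 and 14.1 against 11.9, 26.8 and 13.6 CPM) overlapped. None of 13 cell cycle genes was called.

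**Figure D4:**
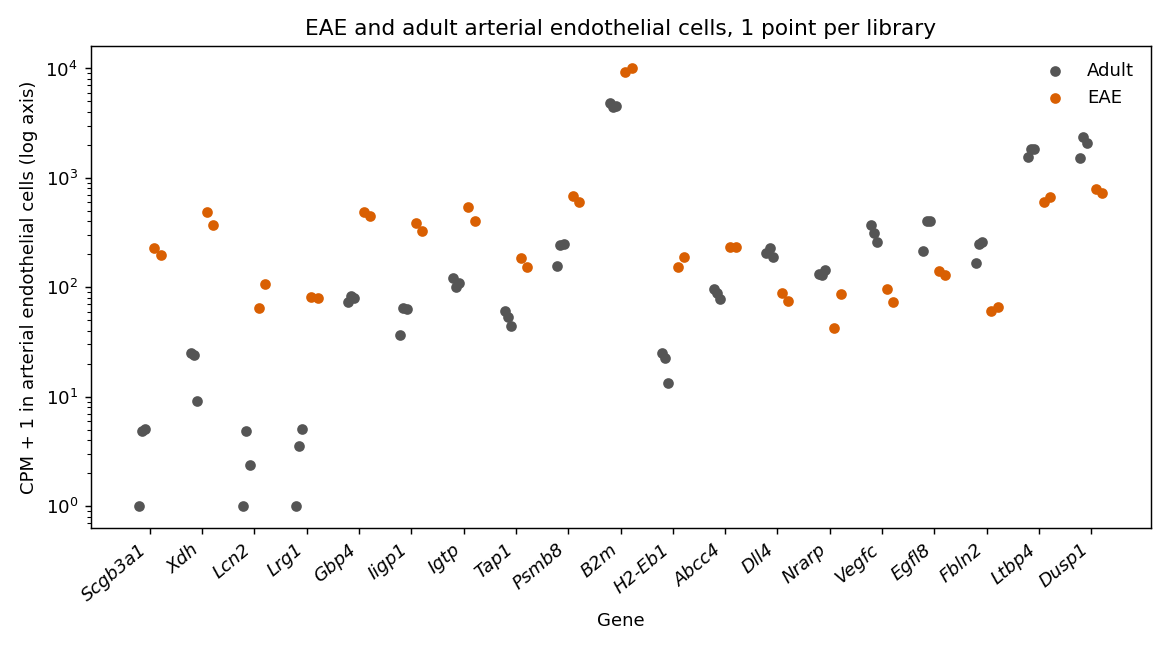
CPM + 1 (log axis) of named genes in the arterial ECs of the 2 EAE and 3 adult libraries, 1 point per library. Scgb3a1, Lcn2, Xdh, Igtp and B2m are higher and Dll4, Vegfc and Fbln2 lower in both EAE libraries than in all adult ones.

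Several of the largest falls in EAE belong to genes that other cells of the cortex express strongly. The mitochondrial gene mt-Nd3 was called lower but had 0 UMIs in arterial and other ECs and in Ttr-rich cells of both EAE libraries, against 187 UMIs in adult arterial ECs. Whether the EAE libraries were annotated or processed differently for this gene was not tested, so it is not read as a change in arterial ECs. The microglial Fcrls fell as well (2 against 60 UMIs, 18.3-fold lower, 4.86 to 155). The astroglial Mt3 (12.4 and 4.03 against 143, 122 and 75.0 CPM), Igfbp2, Cryab, Chchd10 and the choroid plexus gene Folr1 fell by 2.56 to 3.54 on the log2 scale. Ttr, which choroid plexus makes, had 6226 and 5709 CPM in EAE against 47070, 22040 and 21940 CPM in adult arterial sums. The 15 markers of blood and parenchyma together, Ttr among them, summed to 6520 and 25910 CPM against 22390 to 49070 CPM, and the globin Hbb-bs to 62.1 and 8805 CPM against 1110, 163 and 170 CPM. Astrocyte markers summed to 482 and 840 CPM against 1122 to 1874 CPM. The Igfbp2 and Chchd10 calls were lost without cells rich in Ttr, globin or fibroblast genes (adjusted p = 0.381 and 0.133), and those of Mt3, Igfbp2, Cryab, Folr1 and Chchd10 without Juvenile 2 (0.164, 0.328, 0.0965, 0.399 and 0.259). Without EAE 1, Cryab (0.0845) and Chchd10 (0.193) were not called, and Folr1 was not called without Adult 1 (0.0791), Adult 2 (0.0841), Adult 3 (0.0642) or EAE 2 (0.196). The protease Htra1 (35.2 and 72.5 against 215, 440 and 451 CPM, log2 -2.80 ± 0.36 SE), Erh (-3.27) and Gm16418 (-2.71) also fell.

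The EAE change differed between arterial and other ECs in 392 of 11251 genes (3.48%), 120 of them among the 842 called in arterial ECs. The count was 178 without EAE 1, 251 without Adult 2 and 620 without Adult 1. Of the 842 genes called in arterial ECs, 802 changed in the same direction in other ECs, and 693 were also called in them. Dll4 had a log2 change of -1.28 in arterial and 0.34 in other ECs (difference -1.44 ± 0.21 SE, adjusted p = 4.80e-08), so that other ECs, with mean levels of 96.5 CPM in EAE and 83.8 CPM in adult mice, stood above arterial ECs in EAE. Jag1 gave a difference of -0.96 ± 0.16 SE (adjusted p = 3.67e-06) and Hey1 of -0.70 ± 0.16 SE (adjusted p = 0.00249). Vwf had 644 and 754 CPM in EAE against 549, 518 and 618 CPM in adult arterial ECs, while other ECs had mean levels of 573 and 100 CPM (difference -2.13 ± 0.14 SE, adjusted p = 3.36e-27). Arterial Vwf alone did not pass (adjusted p = 0.139), though it did among cells with at least 5 UMIs of the rule's genes (0.0109).

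Of 15 immediate early genes 11 changed less upward or more downward in arterial ECs and 0 the other way. Fos had 1225 and 1399 CPM against 1110, 2523 and 2662 CPM in arterial ECs and mean levels of 1512 and 838 CPM in other ECs (difference -1.52 ± 0.13 SE, adjusted p = 5.13e-18). The nuclear receptor Nr4a1 gave -1.55 and the phosphatase Dusp1 -0.87. Adult 1 lay below the other adult libraries in several of these stress-responsive genes, for example with 23.9 CPM of Egr1 against 255 and 240 CPM. Of 20 acute-phase and stress genes 6 and of 17 MHC class I genes 6 rose less in arterial ECs and 0 rose more, such as H2-K1 (1908 and 2033 against 1015, 949 and 995 CPM in arterial ECs, and mean levels of 1810 and 482 CPM in other ECs, difference -0.87 ± 0.14 SE, adjusted p = 7.86e-07). Conversely Xdh (1.53 ± 0.27 SE, adjusted p = 2.30e-05) and Slc7a5 (0.98 ± 0.16 SE, adjusted p = 2.67e-06) rose more in arterial ECs.

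**Figure D5:**
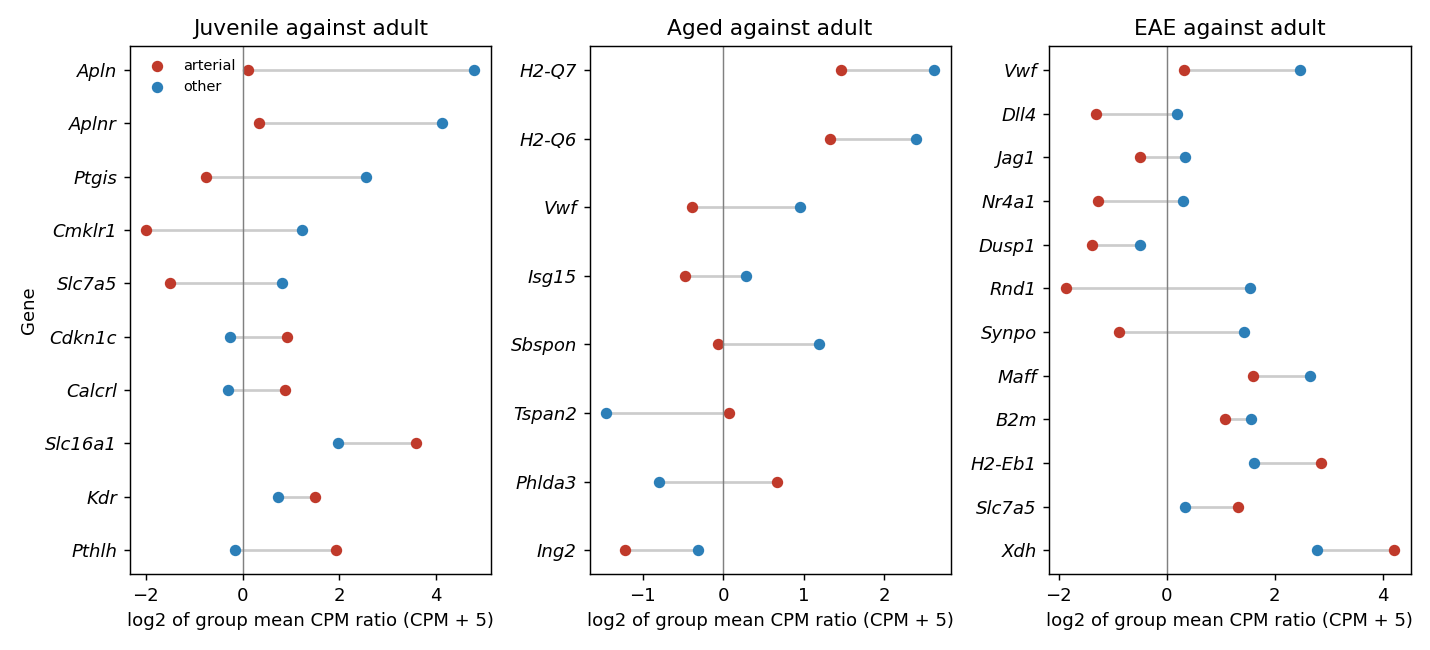
Log2 ratio to adult (mean CPM + 5) in arterial and in other ECs for genes whose change differed between the classes, in the juvenile, aged and EAE comparisons. Slc7a5 and Aplnr in juveniles, Vwf and H2-Q7 in aged mice, and Dll4, Vwf and Nr4a1 in EAE lie lower in arterial than in other ECs, and Xdh and Slc7a5 lie higher in EAE.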

How the data were processed

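Single-cell RNA-seq was run on 11 libraries of mouse cortex (4 juvenile, 3 adult, 2 aged and 2 EAE), grouped by their labels. The deposited values are UMI counts per gene and cell, which the authors made per the submitters' processing notes with bcl2fastq 2.19.1.403, UMI-tools 0.5.3, STAR 2.5.3a, featureCounts 1.6.1 and the mm10 genome. The study's methods name other versions of UMI-tools, STAR and featureCounts than these notes. The gene annotation is not given in the sources used here. The 11 tables together listed 26921 genes, with 20915 to 22173 in a single library, and 54646 barcodes were read in all.

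Barcodes were kept (50625) where their detected genes numbered over 500 but below 6000 and mitochondrial UMIs stayed below 25%, and ECs and arterial ECs were taken by the rule given above. No doublets were removed in the main analysis, and Scrublet (scanpy 1.11.5) calls were left out as an alternative. Members and gene lists were chosen with earlier results of these data known. UMIs were summed over the arterial ECs of each library (83764 to 829556 UMIs), and libraries of a group were summed into 1 unit where their ECs differed by no more than 1.2 times their sampling error over cells (mean squared difference of 1.07 and 1.18 for the juvenile pairs, 1.21 for Adult 2 and 3, which were kept apart). This difference was 1.38 for the EAE and 1.65 for the aged libraries, also kept apart. It was 4.02 to 4.59 between the juvenile pairs and 5.04 and 5.22 between Adult 1 and Adult 2 and 3. The EAE, the aged and these 2 adult libraries thus lay nearer to the limit for summing. Units with at least 10 arterial ECs were tested with edgeR 4.0.16 in R 4.3.3 (TMM, filterByExpr, robust quasi-likelihood), all 4 groups in 1 fit, with Benjamini-Hochberg adjustment. The genes of the rule stayed in the fits and in the totals of genes tested and called. They were left out of the list counts and of the genes named by size of change. Without them 8609 genes were tested, with 526 higher and 588 lower for juvenile, 35 and 69 for aged and 462 and 377 for EAE. In the interaction fit 11236 genes remained, with 476 and 490, 38 and 77, and 126 and 262 called. Differences between arterial and other ECs were tested as an interaction with the unit as a block. Shares of arterial ECs were compared by an exact permutation test after thinning to 1500 UMIs. Ratios of arterial to other ECs use a pseudocount of 5 CPM and have no test, since the rule chose the cells on their own counts. CPM in single libraries use the arterial total. Intervals (95%) are exact and cover counting error only, and folds against groups without UMIs use a floor of 3 counts over the group.

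Named genes were up to 10 called genes per direction by size of change, whose libraries did not overlap and whose higher group reached 50 CPM, plus up to 4 members of each list with the lowest p. For arterial against other ECs the rule took up to 15 higher and 10 lower by ratio, among genes with the same direction in every library, and for interactions up to 5 per direction. Genes named outside this rule (list members given for comparison, promoters, markers of other cells) were chosen after their values were seen. Some genes that this rule selects are not reported here. Fits were tested on simulated data. Alternatives were DESeq2 1.42.0, no filter on low counts, only 2 groups in the fit, each library as a replicate, a replicate block, 5 arterial UMIs, thinned selection, no Scrublet doublets, at least 25 arterial ECs and each library left out. Chosen after seeing the data were summing Adult 2 and 3, the rule without Fbln5, leaving out a juvenile pair, and leaving out cells rich in Ttr (over 10% of UMIs), globin (over 5%) or fibroblast genes (3 UMIs). Promoter sequences and their coordinates are from RefSeq (GRCm38.p6), and gene coordinates are from the GENCODE annotation.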

Additional observations from a re-analysis of the deposited data

Results flagged for a closer look

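The changes that differed between arterial and other ECs by the interaction test (edgeR quasi-likelihood, Benjamini-Hochberg adjusted p of 0.05) were singled out because the difference itself passed: 968 genes for juvenile, 115 for aged and 392 for EAE against adult mice. Those below were among the largest differences on the log2 scale, with levels as group means over libraries in CPM. In all of them both classes came from the same libraries, while the mix of cells among other ECs differed between groups.

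In juveniles the change was higher in arterial ECs by 3.36 for Sostdc1, a BMP and Wnt inhibitor (142 CPM in juvenile and 47.7 CPM in adult arterial ECs, against 89.6 and 218 CPM in other ECs). For Sostdc1 the difference was 1.43 (adjusted p = 0.00866) without cells rich in Ttr, globin or fibroblast genes, and Ttr-rich cells held 960 to 1442 CPM of it in juvenile and adult libraries. Pthlh, a vasodilator peptide related to parathyroid hormone, gave 2.67 (82.4 and 18.1 CPM, against 1.92 and 2.69 CPM). Cks2 gave 3.34 and was not called without Juvenile 3 (adjusted p = 0.0554), Adult 3 (0.485) or the pair Juvenile 3 and 4 (0.191). The Cks2 difference was 7.86 (adjusted p = 0.00133) without cells rich in Ttr, globin or fibroblast genes, so its size is uncertain, and its adult arterial level rests on 1 UMI. Fam81a gave 2.81, not called without cells rich in Ttr, globin or fibroblast genes (1.14, adjusted p = 0.292). The juvenile change was lower in arterial ECs for Apln (-6.29), Cmklr1 (-5.76), Bgn (-4.45), Aplnr (-3.96) and Ptgis (-3.80). Cmklr1, the chemerin receptor, had 10.1 and 55.2 CPM in arterial ECs and 10.1 and 1.48 CPM in other ECs, and the matrix proteoglycan Bgn 244 and 439 CPM, against 312 and 34 CPM. The Bgn difference was not called without Adult 2 (adjusted p = 0.0744), Adult 3 (0.0880) or the pair Juvenile 3 and 4 (0.0576).

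With age the change was higher in arterial ECs by 1.88 for Tspan2 (73.1 CPM in aged and 69.5 CPM in adult arterial ECs, 7.44 and 29.2 CPM in other ECs), 1.86 for Phlda3 (50.3 and 29.9 CPM, 14.3 and 28.6 CPM), 1.85 for the oligodendrocyte gene Cnp, 1.69 for Aplp1 and 1.49 for Fam81a. When the rule was applied after thinning none of these 5 was called (adjusted p from 0.102 to 1.0), and Cnp was not called without Aged 2 (0.510), Aplp1 not without Aged 1 (0.0997) and Fam81a not without Adult 2 (0.164), Adult 3 (0.157), Aged 1 (0.0905), Aged 2 (0.367), Juvenile 2 (0.0593) or Juvenile 3 (0.154). Without cells rich in Ttr, globin or fibroblast genes the aged difference of Fam81a was 0.57 (adjusted p = 0.946), and Ttr-rich cells held 132 to 407 CPM of Fam81a. It was lower for H2-Q7 (-2.06), H2-Q6 (-1.96), Sbspon (-1.93) and Fstl1 (-1.83). The secreted protein Sbspon had 67.0 and 70.5 CPM in arterial and 26.4 and 8.79 CPM in other ECs. Fstl1, a follistatin-like protein, had 32.6 and 83.5 CPM, against 5.20 and 4.63 CPM. The Fstl1 call was lost without Aged 2 (adjusted p = 0.799) or Juvenile 4 (0.0505).

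In EAE the change was higher in arterial ECs by 2.96 for Cnp, 2.68 for Gm10039, 2.30 for Fez1 (69.6 CPM in EAE and 39.2 CPM in adult arterial ECs, 16.8 and 62.1 CPM in other ECs), 1.80 for H2-Eb1 and 1.72 for Morn2. H2-Eb1 had 171 and 19.3 CPM in arterial and 194 and 59.9 CPM in other ECs, so that its arterial level stayed the lower by group mean, and its RNA in arterial ECs cannot be told apart from that of other cells, with 190 and 156 CPM in Ttr-rich cells of the EAE libraries. Cnp was not called with the rule after thinning (0.61, adjusted p = 0.699), and Gm10039 and Morn2 were not called without cells rich in Ttr, globin or fibroblast genes (adjusted p = 0.660 and 0.396), without Adult 2 (0.0663 and 0.0584) or without EAE 1 (0.274 and 0.245), nor Gm10039 without EAE 2 (0.180). It was lower by the largest amounts for Doc2b (-4.64), Rnd1 (-3.73), Cyp1b1 (-3.64), Cmklr1 (-3.58) and Synpo (-3.57). Rnd1, a small GTPase of cell rounding, had 31.7 and 129 CPM in arterial and 154 and 49.9 CPM in other ECs. Synpo, an actin-associated protein, had 54.9 and 105 CPM, against 13.8 and 1.97 CPM, and Cyp1b1, a cytochrome P450, 51.8 and 11.4 CPM, against 28.7 and 0.617 CPM. Doc2b had 29.6 and 3.61 CPM, against 53.8 and 0.368 CPM, and was not called without Adult 3 (-1.99, adjusted p = 0.865). Cmklr1 had 8.09 and 55.2 CPM, against 2.12 and 1.48 CPM, and was not called without EAE 1 (-2.50, adjusted p = 0.116).

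In 1 of 27 measures looked at for a library apart from the rest of its group, Ifi27l2a had 4.54 CPM in Juvenile 3, on 2 UMIs, and 0 in the other 3 juvenile libraries. With those 3 at 0 any count would have stood apart, so nothing is read from it, and chance alone sets about 1 in 20 such groups apart.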

How the results depend on the processing

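Counts of called genes varied with the libraries, the tool and the fit. For juvenile against adult arterial ECs (1119 genes) DESeq2 called 469, and leaving out a library gave 665 to 1248 and leaving out the pair Juvenile 3 and 4 gave 713. With Adult 2 and 3 also summed the juvenile count was 799. For aged (104) the count was 186 with no filter on low counts, 62 with 11 libraries as replicates, 39 with Adult 2 and 3 also summed, 234 with at least 25 arterial ECs in a unit, 22 with DESeq2, 216 with only the 2 groups in the fit, 22 to 234 with a library left out, and 265 and 266 without the pairs Juvenile 1 and 2 and Juvenile 3 and 4. For EAE (842) it was 498 at 5 UMIs of the rule's genes, 403 with DESeq2, 463 to 981 with a library left out, and 1144 and 1158 without the pairs. With Adult 2 and 3 also summed the EAE count was 618. The number of genes whose change differed between arterial and other ECs was 623 to 1090 for juvenile (968) with libraries left out. For aged (115) it was 72 with 11 libraries, 253 with at least 25 arterial ECs in a unit, and 56 to 253 with libraries left out, the extremes being without Aged 2 and without Adult 1. For EAE (392) it was 620 with at least 25 arterial ECs in a unit and 178 (without EAE 1) to 620 (without Adult 1). Genes lower in arterial than in other ECs numbered 117 with the rule after thinning, against 71. With libraries left out, the difference of shares from adult ranged from 1.75 to 3.38 points for juvenile, 0.199 to 1.83 for aged and -3.22 to -1.59 for EAE. Igf2, called in juveniles, was -0.12 without cells rich in Ttr, globin or fibroblast genes. The cause of these shifts was not tested. For single genes 6728 values kept their direction and side of the threshold, 361 lost and 238 gained a call, 1 reversed, and 10 fell in none of these classes.

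With the replicate number as a block and 11 libraries (replicate block), 882 genes were called for juvenile, 50 for aged and 639 for EAE. Libraries with the same number did not deviate together (13 pairs, r from -0.114 to 0.0861), so the numbers do not pair them. Summing Juvenile 1 with 2 and Juvenile 3 with 4 is what the units already did and gave no separate value. In data simulated for aged against adult arterial ECs (8497 genes tested), 43.5% of genes changed by 1 on the log2 scale and 95.7% of those changed by 2 were called, so smaller changes can be missed at this depth. Adult 1, with 21 arterial ECs, was the shallowest library.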
